A study of Mus musculus with 6 samples.

Results

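The RNAs under the YTHDC1 LACE-seq peaks of activated satellite cells (ASC-48 hr) were described gene by gene from 4 peak lists. A peak was kept when no run of 10 or more G lay within 20 nt of it on the strand of the reads, and it was assigned to the mouse genes of the opposite strand, since in these files the reads lie on the strand opposite to that of the RNA. This left 40834 of the 46247 ASC-48 hr peaks, in a series with 178779 peaks in all. The kept peaks fell in 6842 of 37310 annotated genes, and peaks of the same kind in C2C12 fell in 11538 genes.

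ASC-48 hr were wild-type satellite cells isolated by FACS from mouse muscle and held in culture for 48 hr, and C2C12 is an established wild-type mouse myoblast line that the study processed from more cells. Both were irradiated with UV light and YTHDC1 was pulled down with an Abcam antibody, with no input, IgG or YTHDC1-depleted library among the 6 analysed here. B1 and B2 are the biological replicates of the ASC, with libraries T1 and T2 as technical replicates of each, and C2C12 has 2 libraries. Where 4 values are given without labels, they follow the order B1 T1, B1 T2, B2 T1, B2 T2. The labels call the C2C12 libraries biological replicates, the text of the study calls them technical, and the age and sex of the mice are not given in the labels.

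YTHDC1 is the nuclear reader of N6-methyladenosine (m6A), the most common internal modification of mRNA. It binds methylated RNA through its YTH domain and is known for roles in splicing, in the export of mRNA from the nucleus and in the fate of nuclear noncoding RNA. Satellite cells are the stem cells of skeletal muscle; they lie quiescent beside the myofibre, and after injury or in culture they enter the cell cycle as myoblasts. In LACE-seq, reverse transcription stops at the nucleotide that was crosslinked to the protein, so a peak is meant to mark RNA that was bound and present. Without a control library a single peak does not show binding by YTHDC1. A gene without a peak may be unbound, not expressed or below what the library could show. A value given as reads counts the reads per 20-nt bin as deposited, and the value of a gene in a library is that of its highest bin.

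The sequences below are those on which the results turn, read on the strand of the RNA in mm9. In the first set the capitals mark the 5′ end of U1 snRNA, the stretch that pairs with 5′ splice sites, at 2 of the genes with the most reads (chr12:55815195-55815224, plus strand, and chr3:96132338-96132367, plus strand).
U1 (ENSMUSG00000075996): tcaggaactcATACTTACCtggcaggggag
U1 (ENSMUSG00000075978): ctaggagagcATACTTACCtggcaggggag

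In the next set the capitals mark GTTCGANNC, a match to the letters of the internal promoter box B of tRNA genes, under intronic peaks of Khdrbs2 (chr1:32645464-32645493, plus strand) and Trim2 (chr3:84032934-84032963, minus strand). They are shown because they lay under the highest bins of 2 of the 12 protein-coding genes with the most reads.
Khdrbs2: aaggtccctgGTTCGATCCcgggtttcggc
Trim2: ggaggcccggGTTCGATTCccggccaatgc

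In the third set the capitals mark the called 20-nt bin, in noncoding RNAs with a peak in all 4 libraries: U2 (chr11:101466156-101466185, plus strand), U4 (chr5:115940256-115940285, plus strand), 7SK (chr5:140320936-140320965, plus strand), Snora65 within Rpl12 (chr2:32818896-32818925, plus strand), U3 within Tmem62 (chr2:120829916-120829945, plus strand) and Malat1 (chr19:5801296-5801325, minus strand).
U2: ctcccGTTATCGCTTCTCGGCCTTTtggct
U4: actcgTCAGCTTTGCGCAGTGGCAGtatcg
7SK: ttgatTCGGCTGATCTGGCTGGCTAggcgg
Snora65: tgtccTACATGTGGATGGCTCTGTGccgaa
U3: tacctCCCCTCCTGAGCGTGAAGCCggctc
Malat1: agacaGGAGTCCCGAAGCCAGTTTGgtgaa

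The last set holds called bins (in capitals) of mRNAs and of genes found in only 1 biological replicate: Hist1h3g (chr13:23627536-23627565, plus strand), Ahnak2 (chr12:114018336-114018365, minus strand), Actb (chr5:143666256-143666285, minus strand), Itga7 (chr10:128391076-128391105, plus strand), Myod1 (chr7:53632416-53632445, plus strand), Pax7 (chr4:139362136-139362165, minus strand), Nova2 (chr7:19548356-19548385, plus strand), Prmt5 (chr14:55132696-55132725, minus strand), Rtn4 (chr11:29593276-29593305, plus strand) and Snrpb (chr2:129998656-129998685, minus strand).
Hist1h3g: gatcgCGCAGGACTTCAAGACCGACctgcg
Ahnak2: tggccCTGGCCGACAAGGACGTGGCggcca
Actb: ggctgGCCGGGACCTGACAGACTACctcat
Itga7: agtgcTGGCTGGGCTGTTAGTCCTGgcctt
Myod1: tgaatGAGGCCTTCGAGACGCTCAAgcgct
Pax7: ttcaaATCCTGCCCCTGCTGCTTGTcaatg
Nova2: gagccTTGCGGTCCGAGCCCTCTCTccacc
Prmt5: ggtagAGCACTTGCTTGTCTAGATGcatga
Rtn4: acggaGCCCGAGGACGAGGAGGACGaggaa
Snrpb: gctgaTGATGCGTCTGTGTAATTAAgcagg

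The label of the cells was checked against marker genes. Of 10 satellite cell and myoblast markers, 7 held a peak, with 54 peaks in all, 37 of them in exons, and 11 peaks on the other strand. For comparison, 23.9% of all protein-coding genes held a kept peak in the sense of the RNA, and 14.8% held one in antisense. Pax7, the transcription factor that defines satellite cells, had 7 and 10 reads in B1 T1 and T2 and 10 and 8 in B2 T1 and T2, but only 2 of its 14 peaks touched an exon. Myod1, the transcription factor of activated and proliferating myoblasts, had 0, 6, 5 and 8 reads in the same order, with all 9 peaks in exons. Itga7, an integrin used to isolate satellite cells, had 0, 10, 8 and 8 reads and 14 of 17 peaks in exons, and Des, the muscle intermediate filament, had 0, 6, 8 and 6 reads with all 8 peaks in exons.

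Myf5 and Sdc4 had a peak in 1 library each and Met in 2, while Vcam1 and Cdh15 had none in ASC-48 hr and at least 3 in each C2C12 library. The marker peaks numbered 1, 10, 13 and 30 in the 4 libraries, so B1 T1 showed almost none. Of the markers of other cells, none of 5 fibro-adipogenic and none of 3 glial genes held a peak, 1 of 5 endothelial (Emcn), 1 of 5 immune (Itgam) and 1 of 4 smooth muscle genes (Myh11) did, and 3 of 6 myofibre genes (Myh4, Acta1 and Neb) held 4 peaks. The peaks of Emcn and Itgam lay in introns and came from B1, and no exon of a defining endothelial or immune marker held a peak. The endothelial, immune and smooth muscle counts lie near the 23.9% of all protein-coding genes with a peak, and the sets are small. In antisense, endothelial markers held 13 peaks against 2 in sense, immune markers 4 against 1 and fibro-adipogenic markers 4 against 0. Myofibre markers held 1 against 4, smooth muscle markers 0 against 1, and glial markers none in either sense.

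The libraries differed before any gene was considered. The kept peaks numbered 6989 and 9549 in T1 and T2 of B1, and 6767 and 17529 in T1 and T2 of B2. The lowest listed value was 5 reads in each library but B2 T2, where it was 4. As the lists hold peaks only, the depth of each library is unknown. Between 39.1% and 47.9% of the kept peaks lay in no gene of either strand, against 18.5% and 22.3% in C2C12. The other strand of the genes served as a measured background: of the peaks in genes of 1 strand only, 59.6% (95% exact Clopper-Pearson interval 57.9 to 61.2) and 63.3% (62.0 to 64.7) in B1 T1 and T2, and 76.7% (75.3 to 78.0) and 73.7% (72.8 to 74.6) in B2 T1 and T2, were on the strand of the RNA. The shares in C2C12 were 93.8% and 90.8%. Intervals cover counting error only, since peaks and genes of 1 library are not replicates, and 2 biological replicates allow no test between them.

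On the strand of the RNA, peaks touched an exon in 38.8% and 51.7% of cases in B1 T1 and T2, and in 62.5% and 57.2% in B2 T1 and T2. On the other strand the share lay between 16.2% and 18.2% in every library. Both B1 libraries thus held a smaller share of RNA-strand peaks, and a smaller share of exon peaks, than both B2 libraries.

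**Figure D1:**
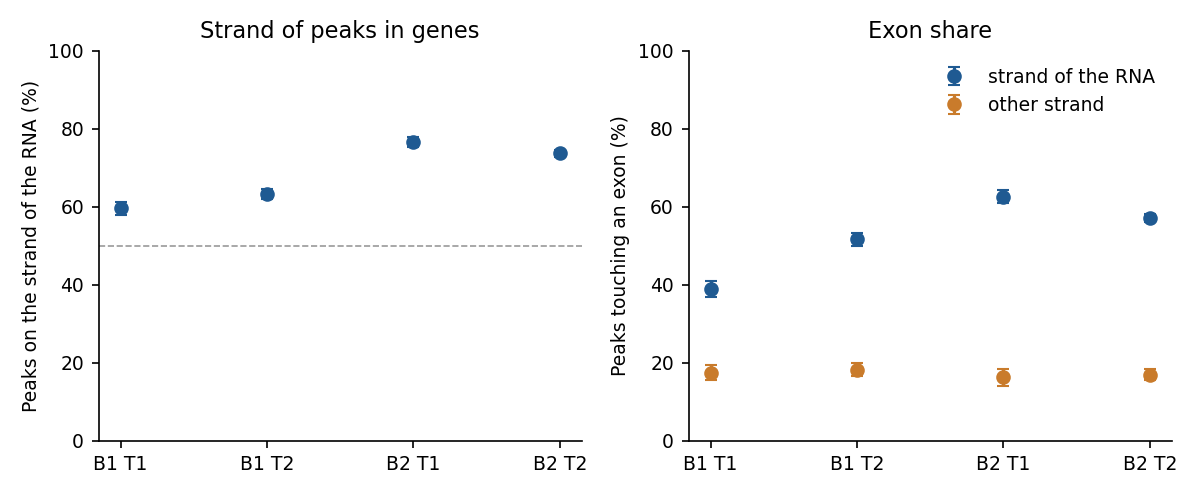
Left, the percentage of peaks in genes of 1 strand that lie on the strand of the RNA, with the dashed line at equal shares, for each ASC-48 hr library; right, the percentage of peaks in genes that touch an exon, for the strand of the RNA (blue) and the other strand (orange). Bars are exact 95% intervals over peaks; the shares on the left run from 59.6% to 76.7%, and on the right the orange points stay at 18.2% or below while the blue ones run from 38.8% to 62.5%.

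A peak was found in all 4 libraries in 754 genes, in 3 in 770, in 2 in 1554 and in 1 in 3764. The 754 genes were 2.02% of all annotated genes, and the same count on the other strand gave 365 genes, or 0.978%. Of the genes with a peak in 1 library only, 2417 came from B2 T2, the library with the most peaks. In 507 of the 754 genes (67.2%), at least 1 site was called in all 4 libraries. On the other strand this held for 262 of the 365 genes, so the share was no higher on the strand of the RNA.

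The composition of these genes changed with the number of libraries. Protein-coding genes were 449 of the 754 found in all 4 libraries (59.5%, interval 55.9 to 63.1) and 3119 of the 3764 found in 1 (82.9%, interval 81.6 to 84.1). The snRNA genes, which encode the RNA cores of the spliceosome, were 142 of the 754 (18.8%, interval 16.1 to 21.8) but 71 of the 3764 (1.89%, interval 1.48 to 2.37). The snoRNA genes, whose products guide the modification of rRNA and snRNA, were 51 (6.76%) against 86 (2.28%), and the misc_RNA class, which holds 7SK and Y RNA, was 33 (4.38%) against 13 (0.345%). On the other strand these 3 classes had no gene in any number of libraries, and protein-coding genes were 89.0% of those found in all 4.

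The snRNA genes of all 4 libraries were 9.98% of the 1423 annotated, and the snoRNA genes 3.29% of 1552. The lincRNA genes were not set apart in this way: 26 held a peak in all 4 libraries and 24 did on the other strand. Processed transcripts, the class of Malat1, numbered 18 and 9. Pseudogenes numbered 19, annotated miRNA genes 3 and rRNA genes 3. The mitochondrial chromosome, whose transcripts are made outside the nucleus, gave both rRNA genes and 8 of 22 tRNA genes in all 4 libraries.

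**Figure D2:**
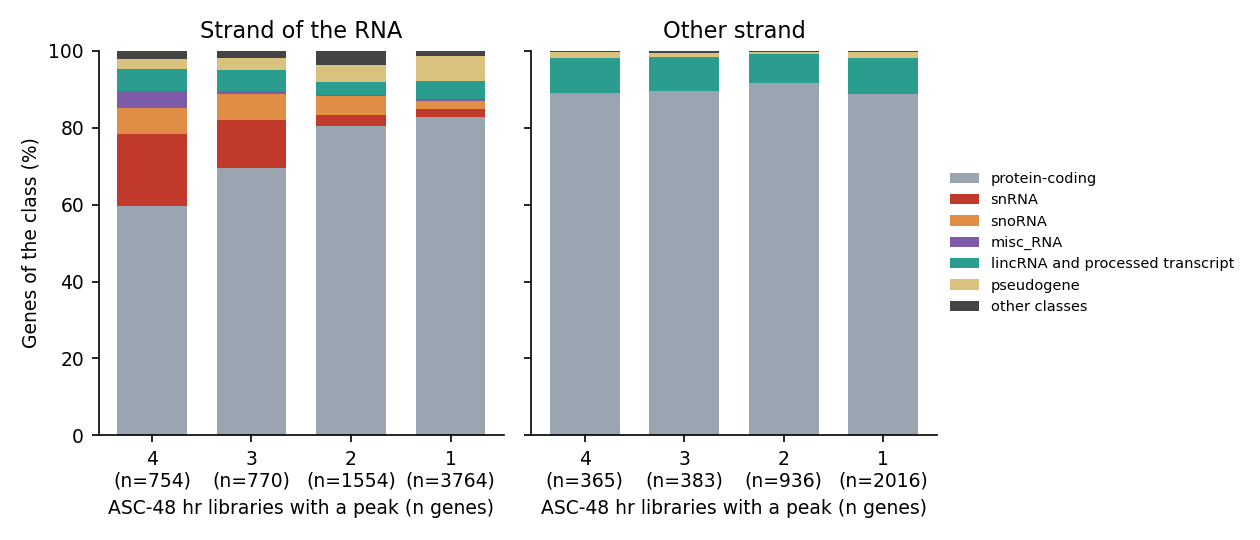
Share of each GENCODE class (vertical axis, %) among genes with a peak in 4, 3, 2 or 1 ASC-48 hr libraries (horizontal axis, number of genes in brackets), for the strand of the RNA and the other strand. On the strand of the RNA the red, orange and purple segments (snRNA, snoRNA and misc_RNA) are larger for 4 libraries, at 18.8%, 6.76% and 4.38%, than for 1. They are absent from the other strand.

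The spliceosomal snRNAs were counted by family. Of 206 annotated U1 genes, 68 held a peak and 39 held it in all 4 libraries; for U2 these were 24 and 14 of 51, for U4 15 and 7 of 43, for U5 7 and 6 of 10, and for U6 223 and 71 of 936. Most of these annotated genes are near-identical copies or pseudogene copies, and reads were placed at up to 10 positions: 73.4% of the 399 U1 peaks and 86.7% of the 655 U6 peaks had a 20-nt sequence that occurs more than once in the genome. The counts of genes are therefore not counts of separate RNAs.

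The U1 gene with the highest mean (ENSMUSG00000075996) had 16 and 20 reads in B1 T1 and T2 and 34 and 47 in B2 T1 and T2, with both B2 values above both B1 values. The next U1 genes, ENSMUSG00000070246 and ENSMUSG00000075923, had 17, 10.5, 38 and 47 reads and 19, 10, 35 and 48 reads in the same order. The U4 gene with the highest mean went the other way, with 33, 32, 25 and 19 reads. The U2 gene shown above had 14, 36, 19 and 15.5 reads, so that its replicates overlapped. U12, an snRNA of the minor spliceosome, had 7, 16, 14 and 19 reads.

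Over the 142 snRNA genes of all 4 libraries, both B1 values lay below both B2 values in 56 (39.4%) and above both in 5 (3.52%). Over all 754 genes these counts were 135 and 146, and over the 449 protein-coding genes 59 and 111. The median log2 ratio of B1 over B2 was -0.39 for snRNA genes and 0.00 for all genes. The median size of the difference between technical replicates was 0.26 (B1) and 0.32 (B2) on the log2 scale over all genes, and that between B1 and B2 0.29. For snRNA genes the technical differences were 0.36 and 0.41 and that between B1 and B2 was 0.40, which lies within the range of the technical ones. Reads were not normalized, and snRNA genes share reads with their copies.

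The position of the peak centre differed between the snRNA families. Some peaks span several bins, so a centre farther in does not mean that the start was uncovered. The peak centre lay no more than 40 nt past the annotated start in 75.0% of 32 U5 peaks, 74.1% of 54 U4 peaks, 42.5% of 134 U2 peaks and 32.1% of 399 U1 peaks, but in 9.01% of U6 peaks. The median centre of U6 peaks lay 69 nt into a gene of 107 nt, and that of U1 peaks 67 nt into one of 164 nt. In ENSMUSG00000075996 the highest bin was centred 6, 106, 106 and 6 nt past the start in the 4 libraries, and in ENSMUSG00000070246 it was 2, 12, 102 and 2 nt, so that the 5′ end shown above carried the highest bin in some libraries and not in others. No peak of these families lay on the other strand.

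**Figure D3:**
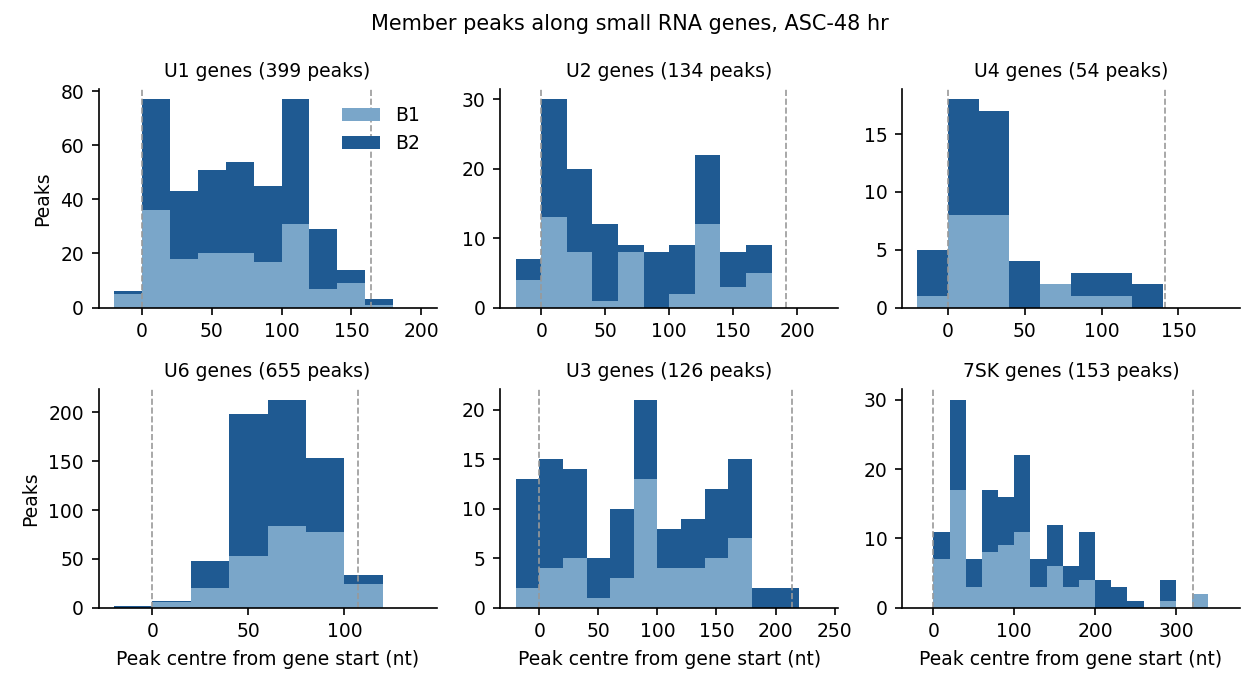
Histograms in 20-nt steps of the distance from the annotated start of the gene to the peak centre (horizontal axis, nt) for peaks of U1, U2, U4, U6, U3 and 7SK genes (vertical axis, number of peaks), with B1 in light blue stacked with B2 in dark blue. Dashed lines mark the start and the median end of the genes; U4 peaks gather at the start (74.1% within 40 nt) and U6 peaks away from it (9.01%).

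Other structured RNAs recurred as well. 7SK, the RNA that holds the elongation factor P-TEFb inactive, had 18, 25, 12.5 and 20 reads at its highest gene, and 17 of 331 annotated 7SK genes held a peak in all 4 libraries. A Y RNA gene had 17, 10, 19 and 16 reads, and 1 of 2 vault RNA genes had 6, 10, 8 and 9. The box C/D snoRNA U3, which takes part in the cleavage of pre-rRNA, had 20, 20, 18 and 17 reads at its highest gene, the smallest spread among the snoRNA genes named here, and 11 of 47 U3 genes held a peak in all libraries. SNORD50 had 6, 15, 18 and 19 reads, with B1 T1 below the other libraries.

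Among 17 nuclear or structured noncoding RNAs of a fixed list that the annotation named, 14 held a peak and 7 held it in all 4 libraries. Malat1, a nuclear RNA of nuclear speckles that is known to carry m6A, had 2, 13, 16 and 23 peaks, all in its exon, and 6, 9, 12 and 10.5 reads. Neat1, the scaffold of paraspeckles, had 6, 7, 8 and 7 reads, and H19, an imprinted RNA, 7, 8, 6 and 9. The snoRNA host RNAs Snhg12, Snhg1 and Snhg3 had 9, 10.7, 10 and 18 reads, 8, 11.5, 13 and 14 reads and 8, 11, 10 and 15 reads, and the highest bin of each shared sequence with a snoRNA. Gas5, another host, had 0, 7, 10 and 15 reads.

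Protein-coding genes recurred through introns more often than through exons. Of the 449 protein-coding genes of all 4 libraries, 105 held an exon peak in each library, 64 held in each library an intron peak with small RNA sequence, 229 held other intron peaks in each, and 51 were mixed. The other strand held 325 such genes. By count every group was the larger on the strand of the RNA, by 105 to 32 for exon peaks, 51 to 29 for mixed genes, 229 to 203 for other intron peaks and 64 to 61 for intron peaks with small RNA sequence. As shares of the 449 and the 325 genes, exon peaks stood at 23.4% against 9.85% and mixed genes at 11.4% against 8.92%. The intron groups had the larger share on the other strand, with 51.0% against 62.5% for other intron peaks and 14.3% against 18.8% for small RNA sequence. Intron peaks of the 4-library genes carried small RNA sequence in 23.7% of cases on the strand of the RNA and in 24.2% on the other.

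The protein-coding genes of all 4 libraries were long. The median length was 81130 nt for these, 36254 nt for those of 1 library and 15420.5 nt for all protein-coding genes. The 325 genes of the other strand were longer still, with a median of 142908 nt. Of the genes taken from the list of long neuronal adhesion and synapse genes, 45 of 49 had a peak in the sense of the RNA and 45 of 49 on the other strand, with 14 and 15 in all 4 libraries. Lrp1b, a receptor of the LDL receptor family, had 8, 14, 15 and 12 reads, but its highest bin lay in an intron, on snRNA sequence with 81 copies in the genome.

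The 12 protein-coding genes with the highest reads were looked at one by one; they do not stand for the intron peaks at large, 76.3% of which carried no small RNA sequence. In 11 of the 12 the highest bin was intronic, in 10 it carried small RNA sequence or the tRNA motif, and in 11 its sequence had further copies in the genome. Tmem62 had 20, 20, 18 and 17 reads, which are those of the U3 gene inside it. Rdm1 had 15, 19, 11 and 17 reads, with its highest bin on snRNA sequence with 176 copies, and Fcgr4 and Kif26b had 8, 10.8, 24 and 21 reads and 5, 10, 24 and 24 reads on snRNA sequence with 23 and 35 copies. Khdrbs2 and Trim2, whose sequences stand above, had 15, 16, 11 and 13 reads and 14.5, 12, 18 and 10.5 reads on the tRNA motif. Tex14, a gene of germ cells, had 17, 19, 38 and 47 reads, and the 47 reads of B2 T2 lay at a bin of a U1 gene in its intron. Rpl12, the gene of the 12 with an exonic bin, had 11, 12, 16 and 18 reads, which are those of Snora65. The place, sequence and copies given are those of the highest bin over the 4 libraries. In 6 of the 12 genes, Tmem62, Fcgr4, Kif26b, Khdrbs2 and Trim2 among them, the highest bins of the 4 libraries lay within 40 nt of each other, and in 6, Tex14, Rdm1 and Rpl12 among them, they did not.

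The tRNA motif was counted by place and by library. It lay within 20 nt of 3.79% of all kept peaks (1549 of 40834) on the strand of the RNA and of 0.140% on the other, against 0.105% of all 60-nt windows of protein-coding exons. The share was 6.43% for peaks in no gene, 1.82% for intron peaks and 0.313% (17 of 5439, interval 0.182 to 0.5) for exon peaks of protein-coding genes. Exon peaks on the other strand of those genes gave 1.91% (22 of 1153). By library it was 5.65% and 4.63% in B1 T1 and T2 and 3.89% and 2.56% in B2 T1 and T2, against 0.637% and 0.544% in C2C12. Read on the other strand the windows gave 0.186%, 0.147%, 0.177% and 0.103% in the 4 ASC libraries but 1.79% and 3.38% in C2C12, where that strand was the richer one. A match to 9 letters is not an annotated tRNA, and no annotation of tRNA genes was used here.

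Exon peaks were set beside the same count on the other strand. An exon peak in at least 1 library was found in 11.7% of protein-coding genes (2617 of 22380) on the strand of the RNA and in 3.52% (788) on the other. In all 4 libraries it was found in 105 genes (0.469%) and in 32. Without peaks on small RNA sequence these were 94 and 28. Of these genes, 40 and 28 belonged to none of the gene lists used here.

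The replication-dependent histone genes, which supply histones for newly made DNA and whose mRNAs lack a poly(A) tail, were 42 of the 94 (44.7%). In all, 64 of 67 annotated histone genes held an exon peak, 42 in all 4 libraries, and 1 held an exon peak on the other strand. All 11 H3 genes, 11 of 18 H2B, 10 of 11 H4 and 10 of 19 H2A genes held a peak in all 4 libraries, and none of 6 H1 genes did. Hist1h3g had 8, 14, 10 and 12 reads, Hist2h3b 8, 12.5, 8.5 and 12, and Hist1h2bg 8, 9, 9 and 10, so that the values of B1 and B2 overlapped or met in each. The copies of a histone family are nearly identical, only 11 of the 64 genes held a peak whose sequence occurs at 1 position of the genome, and all peaks of the H2A and H3 genes were multicopy, so the reads cannot be given to single genes.

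Of the other 52 genes, 22 held exactly 1 exon peak in each library, 13 held 5 to 9 peaks and 17 held 10 or more. Ahnak2, a scaffold protein whose coding exon is internally repeated, held 126 peaks, 125 of them in exons, and these were spread unequally, with 1 and 15 in B1 and 32 and 78 in B2. Its highest bin had 5, 8, 7 and 9 reads, and its sequence occurs 17 times in the genome.

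Cytoskeleton and adhesion genes of a fixed list were 6 of the 52. Actb, cytoplasmic beta-actin, held 3, 9, 3 and 10 peaks and 6, 9, 8 and 12 reads. Vim, the intermediate filament of mesenchymal cells, had 5, 12, 7 and 8 reads, and Actg1, cytoplasmic gamma-actin, 6, 7, 9 and 9. Pfn1, an actin-binding profilin, had 5, 8, 8 and 6 reads, Lgals1, a secreted lectin, 5, 6, 9 and 5, and Ctnnb1, beta-catenin, 7, 5, 7 and 6, all counted over exon peaks. Both B1 values lay below both B2 values in Actg1, and the replicates overlapped in the other 5.

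Further genes of the 52 included Eef1a1 and Eef2, elongation factors of translation, with 7, 9, 7 and 6 reads and 6, 8, 7 and 7 reads. Hsp90ab1, a cytosolic chaperone, had 5, 5, 6 and 4 reads. Egr1, an immediate early transcription factor, had 7 reads in each library. Ttn, the giant protein of the sarcomere, held 19 exon peaks, with 1, 5, 3 and 10 in the 4 libraries. The mitochondrial mRNA mt-Co1 had 9, 13, 16 and 14 reads and 44 exon peaks, and mt-Nd1 had 6, 15, 7 and 10.

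Gene lists put these mRNAs beside the rest of the transcriptome. The comparison for each list is the 11.7% of protein-coding genes with an exon peak, which includes genes that these cells may not express; the part of expression in the values of the lists was not tested. The lists were chosen with earlier results of these data known. An exon peak was found in 34 of 46 cytoskeleton and adhesion genes (73.9%), 45 of 80 cytosolic ribosomal protein genes (56.3%), 17 of 33 satellite cell and myogenic regulators (51.5%), 21 of 41 SR and hnRNP splicing factors (51.2%), 17 of 35 translation factors (48.6%), 11 of 23 heat shock chaperones (47.8%), 12 of 30 genes of mRNA export and the nuclear exosome (40%), 8 of 22 m6A writers, erasers and readers (36.4%), 16 of 50 cell cycle genes (32%), 12 of 42 core spliceosome proteins (28.6%) and 8 of 49 long neuronal genes (16.3%). On the other strand no list exceeded 9.09%.

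Apart from the histones, few members of these lists recurred in every library. All 4 libraries held an exon peak in 6 cytoskeleton, 6 ribosomal protein and 3 translation factor genes and 1 chaperone (6, 3, 2 and 1 without small RNA sequence), and in no splicing, spliceosome, m6A, export, cell cycle or myogenic regulator. The median over members of the mean reads, with a library without a peak taken as 0, was 6.75 for histone, 4.13 for ribosomal protein, 3.88 for translation factor, 3.5 for long neuronal and 2.88 for cytoskeleton genes, and 1.5 for all protein-coding genes with a peak.

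**Figure D4:**
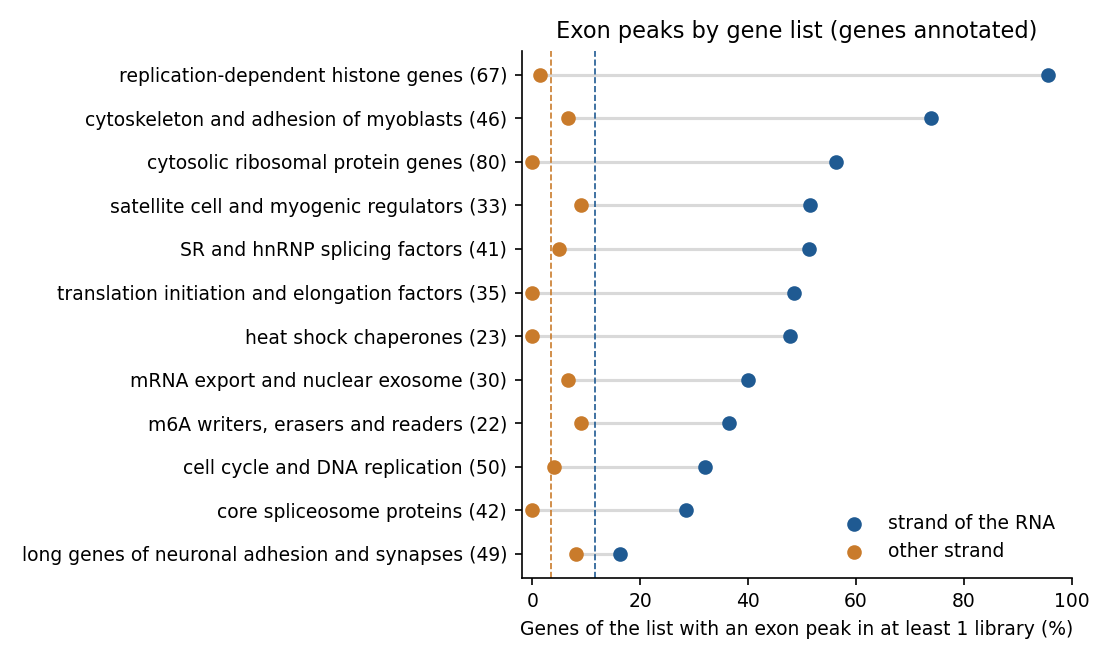
For 12 gene lists (number of annotated genes in brackets), the percentage of genes with an exon peak in at least 1 ASC-48 hr library on the strand of the RNA (blue) and on the other strand (orange). Dashed lines are the values for all protein-coding genes, 11.7% and 3.52%; histone genes stand at 95.5%, and long neuronal genes at 16.3% lie nearest to the background.

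Several of the ribosomal protein and translation genes with the highest reads had their highest bin on snoRNA sequence. They do not stand for the lists at large. A peak of any kind was found in 54 ribosomal protein genes and 20 translation factors, and an exon peak in 45 and 17. The 6 ribosomal protein genes with the highest reads (among them Rpl12, Rpsa, Rps2, Rps3 and Rps12) all had their highest bin on snoRNA sequence. In 3 of the 6 this bin was intronic. Rpsa had 8, 11.5, 12 and 9 reads and Rps3 5, 7, 9 and 15. Among translation factors this held for Pabpc4 (9, 10, 9 and 12 reads), Eif4a1 (6, 8, 12 and 10) and Eif4a2 (0, 6, 13 and 9). Exon peaks without small RNA sequence were found in all 4 libraries in Rplp1, an acidic ribosomal protein, with 10, 10, 6 and 7.5 reads, and also in Rpsa (5, 10, 7 and 8) and Rps2 (6, 10, 6 and 7), proteins of the small subunit.

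Among the myogenic regulators, 19 of 33 held a peak of any kind, against 23.9% of all protein-coding genes, 6 in at least 3 libraries and only Pax7 in all 4. On the other strand 11 of the 33 held a peak, 2 of them in all 4 libraries. Mef2a, a muscle transcription factor, had 6, 6, 0 and 5 reads, with 2 of its 6 peaks in exons. Igf1r, the receptor of IGF1, had 5, 0, 6 and 4 reads, all in introns. Of the cell cycle genes, E2f8, a repressor of the E2F family, had 9, 9, 7 and 5 reads and E2f3 5, 5, 5 and 6, with the highest bins in introns. Mki67, a marker of cycling cells, had 5, 0, 5 and 5 reads in its exons. Among the m6A genes only Fto, an m6A eraser, was found in 3 libraries, with 0, 6, 5 and 5 reads and its highest bin in an intron.

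Of the splicing factors, Hnrnpa0 had 7, 0, 6 and 5 reads and Pcbp1 0, 6, 5 and 4, and no other member reached 3 libraries. Ddx39b, a helicase of mRNA export, had 0, 5, 7 and 7 reads.

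The biological replicates were set side by side with the technical ones kept within each. A B1 gene is one with a peak in both B1 libraries and a B2 gene one with a peak in both B2 libraries, which gave 1474 and 1873 genes. B1 genes were 76.6% of the genes of B1 T1 and 53.8% of those of B1 T2, and B2 genes were 74.3% of those of B2 T1 and 37.4% of those of B2 T2. The 754 shared genes were 51.2% (interval 48.6 to 53.7) of the B1 genes and 40.3% (38 to 42.5) of the B2 genes. The order of these shares rests on the libraries used: they were 71.4% and 21% without B2 T1, 55.9% and 32.7% without B2 T2, 42.6% and 43.8% without B1 T2, and 39.7% and 58.1% without B1 T1. With exon peaks only these shares were 69.4% of 545 and 37.5% of 1009, and on the other strand 34.9% of 1046 and 47.2% of 774.

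The genes held by 1 biological replicate alone differed in kind. The 351 genes of both B1 libraries with no peak in B2 were 90% protein-coding, with 3 snRNA and no snoRNA genes, and 21% of their 752 peaks touched an exon (interval 18.2 to 24.1). That is the share of the 425 genes that B1 alone held on the other strand, 20.7% (18.1 to 23.5). The 718 genes of both B2 libraries with no peak in B1 were 80.6% protein-coding, with 33 snRNA and 53 snoRNA genes, and 58.5% of their 2190 peaks touched an exon (56.4 to 60.6), against 16.6% (14 to 19.5) for the 282 such genes of the other strand.

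Of the B1-only genes, Fhod3, a formin that assembles actin, had 10 and 12 reads in an intron on the tRNA motif, and Prmt5, an arginine methyltransferase that acts on Sm proteins and histones, had 7 and 10 reads in an intron. Nova2, a splicing factor of neurons, had 8 and 10 reads at the 3′ UTR bin shown above, and C230081A13Rik and Fam18a had 9 and 9 and 6 and 11 reads in introns. Of the B2-only genes, Rtn4, a reticulon of the endoplasmic reticulum, had 9 and 14 reads, the higher value at the coding exon bin shown above. Snrpb, which encodes an Sm protein of the spliceosome, had 10 and 11 reads at an exonic bin. Eny2 (10 and 13 reads) had its highest bin on snRNA sequence in an intron. Nfx1 had 10 reads in B2 T1 and 12 in B2 T2, at different places. The B2 T2 bin was intronic and shared a stretch with snRNA and misc_RNA genes, but its sequence has 61149 copies in the genome. The B2 T1 peak touched an exon. Arhgef12 had 8 and 14 reads over 10 peaks.

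The lists were counted in the same way, beside the 351 B1-only and 718 B2-only genes of the whole annotation. The number of histone genes with a peak was 49, 59, 48 and 63 in the 4 libraries, and no histone gene was held by 1 biological replicate alone in both of its libraries. SR and hnRNP genes numbered 1, 4, 13 and 20, core spliceosome genes 0, 1, 9 and 9, cytoskeleton genes 11, 19, 29 and 35, and cell cycle genes 4, 5, 16 and 18. For these 4 lists, no gene was B1-only, and 6, 5, 11 and 5 genes were B2-only. The long neuronal genes numbered 33, 33, 20 and 36, with 5 B1-only and 3 B2-only. Ribosomal protein genes numbered 15, 38, 30 and 46, with 1 B1-only and 4 B2-only, translation factors 8, 12, 13 and 18, with 1 and 2, and mRNA export genes 1, 3, 2 and 9, with 1 and 0. B2 T1 had fewer peaks than B1 T2; it held more genes of the 4 lists named first and of the translation factors, but fewer ribosomal protein and export genes.

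**Figure D5:**
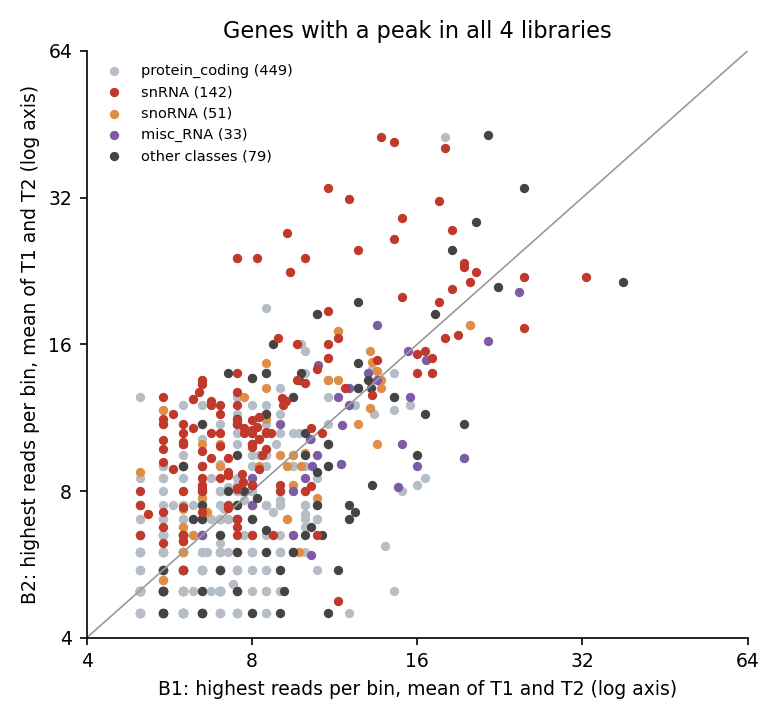
Each point is a gene with a peak in all 4 ASC-48 hr libraries, placed by the mean over T1 and T2 of its highest reads per bin in B1 (horizontal log axis) and in B2 (vertical log axis), coloured by class with the number of genes in brackets; the line marks equal values. The snRNA genes (red) lie mostly above the line, with a median log2 ratio of B1 over B2 of -0.39, and protein-coding genes (grey) spread about it.

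C2C12 gave an outside view of the same genes. Both C2C12 libraries held a peak in 83.3% (interval 80.4 to 85.9) of the genes of all 4 ASC libraries, and in 73.4%, 61.9% and 51.1% of those of 3, 2 and 1. Of all annotated genes they held 21%, and of all protein-coding genes 28.0%. The share was 99.3% for the 142 snRNA genes, 98.0% for the 51 snoRNA genes, 86.7% for the 105 genes with exon peaks, and 75.5% for all 449 protein-coding genes. On the other strand it fell from 55.9% for genes of all 4 libraries to 16.1% for those of 1. Of the lists, C2C12 held 46 of 46 cytoskeleton, 39 of 41 SR and hnRNP, 73 of 80 ribosomal protein, 65 of 67 histone and 30 of 49 long neuronal genes. Pax7 was not held by both C2C12 libraries, which had 0 and 1 peaks there. C2C12 and ASC-48 hr differ in cell type, number of cells and number of peaks together, and these cannot be told apart.

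The letters of the m6A motif were counted under the peaks. GGACT, the most common form of the motif, lay within 20 nt of 5.34% (interval 4.75 to 5.98) of the 5243 exon peaks of protein-coding genes that are left once peaks with small RNA sequence are taken out. The same windows read on the other strand gave 4.88% (4.32 to 5.50), and all 60-nt windows of protein-coding exons 5.79%. In C2C12 exon peaks chosen in the same way it was 6.17% (5.97 to 6.38). The shorter GGAC lay near 24.6% (23.5 to 25.8) of the exon peaks, against 22.5% (21.4 to 23.7) on the other strand, 19.9% of exon windows and 22.1% of C2C12 exon peaks. In exon peaks of the genes of all 4 libraries GGAC was at 24.3% (21.6 to 27.1) on the strand of the RNA and at 27.4% (24.6 to 30.3) on the other. In introns GGAC was at 15.7%, and at 18.8% on the other strand. Each motif was searched as the letters stand, and the expressed exons may differ in composition from all exons; a match is not a methylated site.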

How the data were processed

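LACE-seq peaks of 4 ASC-48 hr and 2 C2C12 libraries were analysed. The authors trimmed reads with Cutadapt 1.15, removed pre-rRNA reads, mapped the rest to mm9 with Bowtie 1.2.3 (up to 10 positions and 2 mismatches) and called peaks per library with Piranha in 20-nt bins at p of at most 0.001 (settings named for ASC). The treatment of duplicates is not given in the sources used here. Each deposited signal is the number of reads per bin, not normalized, and a mean where a peak spans several bins. The deposited p-value is Piranha's, not adjusted, and was used as a filter only.

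Peaks were assigned to GENCODE vM1 genes (NCBIM37) by an overlap of at least 1 nt with bedtools 2.31.1 in Python 3.11.15 (numpy 2.4.6, pandas 2.3.3, scipy 1.17.1, numba 0.67.0, matplotlib 3.10.9). Small RNA sequence means overlap with an annotated small RNA gene, a shared stretch of 16 nt or the tRNA motif. Copies are counts of the first 20 nt of a peak in the genome. Of the list genes, 388 matched and 16 did not, 15 of them noncoding RNAs, and no gene was named 7SL.

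The members and lists were chosen with earlier results of these data known. Named genes were those with the highest mean reads per class in all 4 libraries (12 protein-coding and 5 of each other class), the 5 with most peaks, 5 per biological replicate alone, up to 6 per list in at least 3 libraries, the markers with a peak and the genes whose tracks or splicing events the study shows. Other genes with exon peaks in all 4 libraries (Ttn, Egr1, Rplp1, mt-Co1, mt-Nd1) and Neat1 and H19 were named after their values were seen, and a few genes that the rule takes in are not reported here. Simulated lists gave back 200 of 200 G runs, 50 of 50 copy numbers, 200 of 200 library counts and 160 of 160 small RNA calls. Alternatives changed the filters, the overlap, the strand and the libraries used.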

Additional observations from a re-analysis of the deposited data

Results flagged for a closer look

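Among 53 of the named genes with a peak in all 4 libraries, 3 had 1 library far from the others. The 53 are not all of these named genes. A library also stood apart in E2f3 (5, 5, 5 and 6 reads), Cdh12 (5, 7, 7 and 7) and the U4 gene ENSMUSG00000064664 (6, 17, 5 and 4.5), which are not among the 3. Chance would mark about 1 in 20 such sets of 4 values, and 3 of 53 is near that share. The count does not cover the named genes left out. The pseudogene Gm15662 had 12, 13 and 11 reads in the first 3 libraries (both of B1, then B2 T1) and 28 in B2 T2, a gap of 0.882 of its range. The U1 gene ENSMUSG00000075978 had 19, 16 and 19 reads and 44 in B2 T2, a gap of 0.893 of the range, while the other U1 genes named were high in both B2 libraries. Gm20388, an annotated gene of 4434882 nt, had 9 reads in each library but B1 T1 with 7, a gap of 1 of the range that comes from 3 equal values.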

How the results depend on the processing

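Of 100 values recomputed for 5 results (the genes of all 4 libraries, their protein-coding share, the shares of B1 genes found in B2 and of B2 genes found in B1, and the share of the 4-library genes found in C2C12), 44 were classed as unchanged and 56 as moved. For the number of genes this class was wide. Counts from 507 (same site in every library) to 1089 (without B1 T1) were classed as unchanged beside 754. The values 754, 59.5%, 51.2%, 40.3% and 83.3% changed little when runs of 8 G, a distance of 50 nt or runs of A were used, with an overlap of 10 nt, or without the mitochondrial chromosome. With G runs kept there were 1060 genes, the protein-coding share was 69.6% and the B1 and B2 shares 59.4% and 48.6%. At p of at most 0.0001, 324 genes were left, with shares of 44.8% protein-coding, 42.4% of B1 and 79.0% in C2C12. With at least 5 reads per bin the 4 shares were 55.7%, 44.1%, 44.2% and 86.3%, and the B1 and B2 shares no longer differed. With at least 6 reads, 365 genes gave 42.7%, 46.3%, 43.1% and 94.2%. Peaks in exactly 1 gene gave 64.3%, a B1 share of 46.5% and 79.6% in C2C12. Peaks with 1 copy in the genome left 390 genes, with 72.8%, 39.5%, 31.4% and 67.9%. Exon peaks left 378 genes, with 27.8%, 69.4%, 37.5% and 93.7%. The same site in every library gave 51.7%, a B1 share of 37.1% and 61.9% in C2C12. The other strand gave 365 genes, with 89.0%, 34.9%, 47.2% and 55.9%, so that the B2 share was then the higher. Without each library in turn, the number of genes found in all libraries left ran from 820 to 1089 and the protein-coding share from 56.6% to 67.3%. The B1 share ran from 39.7% to 71.4%, the B2 share from 21% to 58.1% and the C2C12 share from 76.1% to 84.9%. The B1 share was highest and the B2 share lowest without B2 T1, and the reverse held without B1 T1, so the order of the B1 and B2 shares depends on the library that is left in. Both alternatives chosen after seeing the data removed small RNA sequence. Without such peaks 405 genes were left, with 89.9%, 38.6%, 34.1% and 69.1%, so the high share of noncoding genes rests on these peaks by construction. Exon peaks of protein-coding genes without small RNA sequence left 94 genes, which are 100% protein-coding by construction, with shares of 44.5% and 22.4%. The cause of the other changes was not tested.

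No paired analysis was possible because the results come from no test and the replicate numbers of the ASC and C2C12 libraries name different cells. The depth of the libraries is unknown, and the lists differ in the lowest number of reads they hold. With 2 biological replicates the difference between B1 and B2 cannot be told apart from that between the preparations, and no library without the antibody was analysed here.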

Other observations

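A large part of the RNA that was called lay outside annotated genes. Of 1515 sites called in all 4 ASC libraries, 711 lay in no gene of either strand, 574 in a gene on the strand of the RNA and 230 in a gene of the other strand only. Small RNA sequence or the tRNA motif was found in 25.3% (22.2 to 28.7) of the sites in no gene, 58.5% (54.4 to 62.6) of those in genes on the strand of the RNA and 16.5% (12 to 22) of those on the other strand. The tRNA motif alone was found in 117 of the 711. The noncoding gene Gm17480 held the highest reads of any long noncoding gene, with 37 and 39 in B1 T1 and T2 and 26 and 17 in B2 T1 and T2, in an intron bin whose sequence occurs once in the genome and holds no small RNA sequence. Both B1 values lay above both B2 values there.

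Transcripts of the mitochondrial chromosome were found beside the nuclear ones. All 13 protein-coding genes held a peak, in 3, 10, 12 and 13 genes of the libraries in the order B1 T1, B1 T2, B2 T1, B2 T2, and all 22 tRNA genes did, in 8, 17, 19 and 22. The 207 peaks of the protein-coding genes stood beside 34 on the other strand. The large rRNA mt-Rnr2 had 20, 23, 33 and 53 reads and 87 peaks, with both B2 values above both B1 values.

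Genes whose tracks or splicing events the study shows were looked up one by one. Palb2 had a kept peak in all 4 libraries, with 10, 11, 5 and 6 reads, in an intron on misc_RNA sequence with 73 copies. Spef1 and Cenpb shared 1 bin with 7 reads in each B2 library and none in B1. Enah had 6 and 5 reads in B2 alone. Ccdc171, annotated as 4930473A06Rik, had 6 and 6 reads in B1 alone and 31 peaks on the other strand. Ybx1 had kept peaks in B2 T2 only, with 5.5 reads, and 4 peaks at G runs on either strand, 1 in each library. Itgb3bp had 5 reads in B1 T2 alone. Lrp8 and Nek1 had no kept peak on the strand of the RNA. Each had 4 peaks at G runs, counted on either strand and spread over the 4 libraries. On the other strand Itgb3bp held 4 kept peaks, found in all 4 libraries, Ybx1 held 2, and Spef1, Cenpb and Lrp8 held 1 each. Palb2, Enah and Nek1 held none there.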
